A study of Homo sapiens with 24 samples.

Results

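The ligands, receptors and modulators of the epidermal growth factor receptor family were followed in RWPE1 cells, an immortalized, non-tumorigenic line of human prostate epithelium. The list named 10 genes, the ligands HBEGF, AREG, EREG and TGFA, the receptors EGFR, ERBB2 and ERBB3, and the modulators LRIG1, LRIG3 and ERRFI1. Every probe set annotated with only one of these symbols was taken. This found 9 of the 10 genes, out of 19775 genes named in this way on the array, and 32 of the 54613 probe sets of the array, 9 for ligands, 17 for receptors and 6 for modulators. No probe set carried the symbol AREG alone, and that gene was not analysed here.

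Cells received either 1,25(OH)2D, the vitamin D hormone, at 100 nM or 0.1% ethanol as vehicle. Harvests at 6, 24 and 48 h gave 6 groups of 4 arrays, 24 in all. Cells of all 6 groups grew in a serum-free keratinocyte medium to which insulin, EGF and FGF were added, so a ligand of EGFR was supplied to treated and vehicle cells alike. Only the 48 h groups had a change of medium in between, at 24 h. RWPE1 is 1 line, and the labels call the replicates biological without naming their source, so each p-value covers the spread among these samples, which may be technical.

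Ligands of this family are made as membrane-bound precursors and are shed by proteases of the ADAM family. Those listed here bind EGFR, and some bind ERBB4 as well, while the neuregulins bind ERBB3 and ERBB4. The receptors pair with each other or with ERBB2, which has no known soluble ligand, and signal through RAS and ERK and through PI3 kinase. LRIG1 and ERRFI1 act at the receptor as negative regulators, and in prostate epithelium the pathway is known for its part in the growth of basal cells.

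Values are gcRMA expression values on the log2 scale, so a difference of 1 is a doubling. Each log2 fold change subtracts the vehicle mean from the 1,25(OH)2D mean and is given with its standard error (SE). A probe set was called changed when its adjusted p, by limma with Benjamini-Hochberg adjustment over every probe set tested, was under 0.05. The brightest tested probe set stands for each gene. Of the 32 probe sets 19 were bright enough to be tested, 6 of ligands, 10 of receptors and 3 of modulators, and the other 13 had means of 1.43 to 2.73 over all arrays.

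CYP24A1, the vitamin D-degrading enzyme, was at 13.65 to 13.9 with 1,25(OH)2D and 3.48 to 4.06 with vehicle at 6 h, and CD14 was at 10.67 to 11.2 with 1,25(OH)2D and 3.08 to 3.21 with vehicle. Of the basal markers with a probe set, KRT5 (15.2 to 15.4), KRT14 (16 to 16.2), ITGB4 (12.3 to 13) and LAMB3 (10.3 to 12.4) were bright on every array. LAMB3, a laminin chain, was higher with 1,25(OH)2D by 1.78 at 6 h (adjusted p = 0.000151) and by 0.47 at 48 h (adjusted p = 0.012). The integrin ITGB4 was lower at 48 h (-0.37, adjusted p = 0.0415). Of the luminal markers the keratins KRT8 (12.3 to 13.6) and KRT18 (14 to 14.8) were bright. The secretory markers were dim, KLK3 at 3.42 to 5.2, KLK2 at 2.69 to 2.77, ACPP at 2.41 to 2.55 and TMPRSS2 at 2.28 to 2.38. No luminal marker tested was called at any time. KRT17 and TP63 had no probe set that carried the symbol alone. The mesenchymal, leukocyte and endothelial markers with a probe set had means of 1.57 to 3.66, with COL1A1 (9.45 to 10.7) as the exception, which was lower with 1,25(OH)2D at 48 h (-0.60, adjusted p = 0.0136). The part of these marker changes in the results of the family was not tested. Along the main direction of variation within groups, 4 arrays stood apart from their group. These were 1,25(OH)2D replicates 1 and 4 of the 24 h harvest and vehicle replicate 1 of both the 6 h and the 24 h harvest. They were picked from these data by that distance, so fits without them tend to a smaller spread by choice. At 6 h the 19 member probe sets had a mean SD of 0.276 with 1,25(OH)2D and 0.327 with vehicle. At 24 h the mean SD was 0.449 with 1,25(OH)2D and 0.207 with vehicle, and at 48 h it was 0.215 with 1,25(OH)2D and 0.159 with vehicle.

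The clearest changes of the family were a rise of the ligand HBEGF and falls of the modulators LRIG3 and LRIG1. At 6 h 3 of the 19 member probe sets were called, 2 higher and 1 lower with 1,25(OH)2D. Of all probe sets tested, 2.69% were called at 6 h, 1.91% higher and 0.781% lower. At 24 h no member probe set was called by limma, against 0.354% of all. There 7 had an unadjusted p under 0.05, against 8.58% of all, and the SAM test called 3, against 5.15% of all. The 7 were the 5 tested probe sets of EGFR and those of LRIG1 and LRIG3, and the 3 were 2 of EGFR and that of LRIG1. At 48 h 4 of the 19 were called, 2 higher and 2 lower, against 9.64% of all (4.02% higher and 5.63% lower). At 6 h the median size of the change was 0.112 for the members and 0.0981 for all probe sets. It was 0.507 for the members and 0.194 for all at 24 h, and 0.347 for the members and 0.105 for all at 48 h. The members were chosen with earlier results of these data known, so these comparisons with all probe sets are descriptions only. As this is bulk RNA, fewer cells that express a gene and less of its RNA per cell cannot be told apart.

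**Figure D1:**
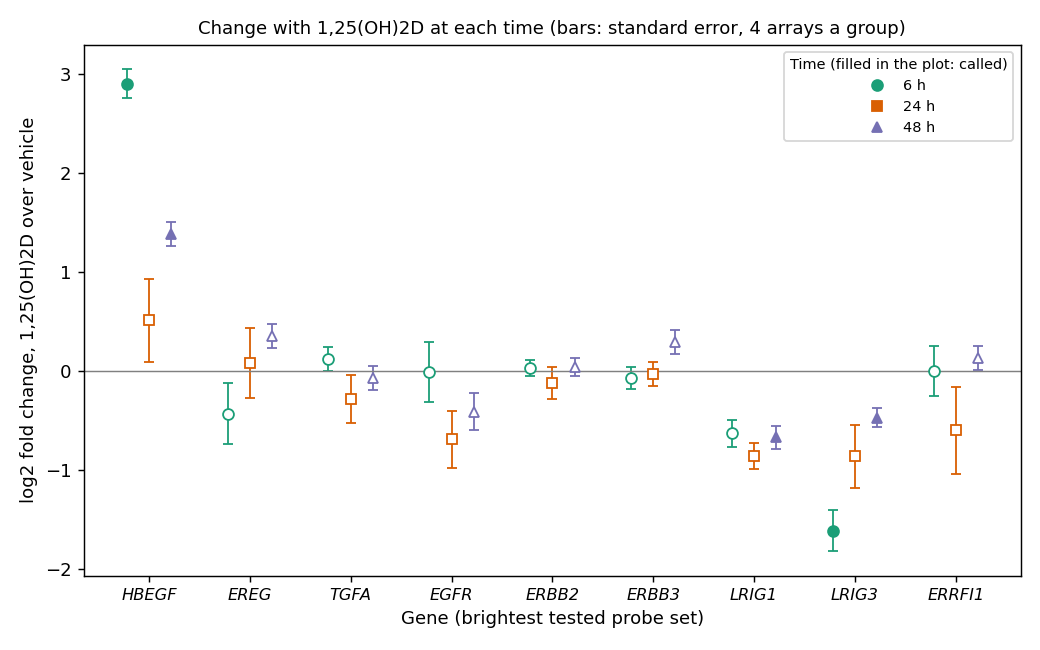
Log2 fold change of 1,25(OH)2D over vehicle (y axis) for the brightest tested probe set of 9 genes (x axis) at 6, 24 and 48 h. Points are estimates from 4 arrays per group, bars are the standard error, and filled points passed an adjusted p of 0.05. HBEGF at 6 h (2.90) and 48 h (1.38) lies above 0, and LRIG3 at 6 h (-1.61) and 48 h (-0.47) and LRIG1 at 48 h (-0.67) lie below it.

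HBEGF encodes heparin-binding EGF-like growth factor, a ligand of EGFR that is shed from the cell membrane. The study placed HBEGF among the genes that it searched for binding sites of the vitamin D receptor, a choice that was itself based on these arrays. The site it predicted there is shown because it is the one sequence of the family that the study singled out. The study took this site on to a test of receptor binding by chromatin immunoprecipitation, whose outcome is not reported here. Whether the receptor binds the site was not analysed here. Capitals mark its pair of motifs, each of 6 bases, around a spacer of 3.
HBEGF putative site: GGTTCActgAGTACA

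HBEGF, read by probe set 203821_at, was at 8.66, 8.56, 8.59 and 8.63 with 1,25(OH)2D at 6 h, against 5.26, 5.72, 5.88 and 5.97 with vehicle. Every treated array lay above every vehicle array, and the treated arrays lay close together (SD 0.043 with 1,25(OH)2D, 0.32 with vehicle, n = 4 each). The log2 fold change was 2.90 (SE 0.15, adjusted p = 3.91e-05), a 7.48-fold rise.

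At 24 h HBEGF was at 8.5, 8.21, 6.96 and 6.76 with 1,25(OH)2D, against 7.33, 7.4, 6.75 and 6.92 with vehicle. The treated arrays fell into a high and a low pair, and the low pair lay within the vehicle range. The log2 fold change of 0.51 (SE 0.42, adjusted p = 0.601) was not called. Of the treated arrays that stood apart as a whole, replicate 1 was the highest here and replicate 4 the lowest, and without the 4 arrays that stood apart the value was 0.56 (adjusted p = 0.352).

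At 48 h HBEGF was at 9.35, 9.43, 9.45 and 9.3 with 1,25(OH)2D, against 8.06, 8.29, 7.99 and 7.68 with vehicle. The groups did not overlap, and the log2 fold change was 1.38 (SE 0.12, adjusted p = 0.000385), a 2.6-fold rise. The change at 6 h and that at 48 h passed in every alternative run and with each array left out in turn.

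**Figure D2:**
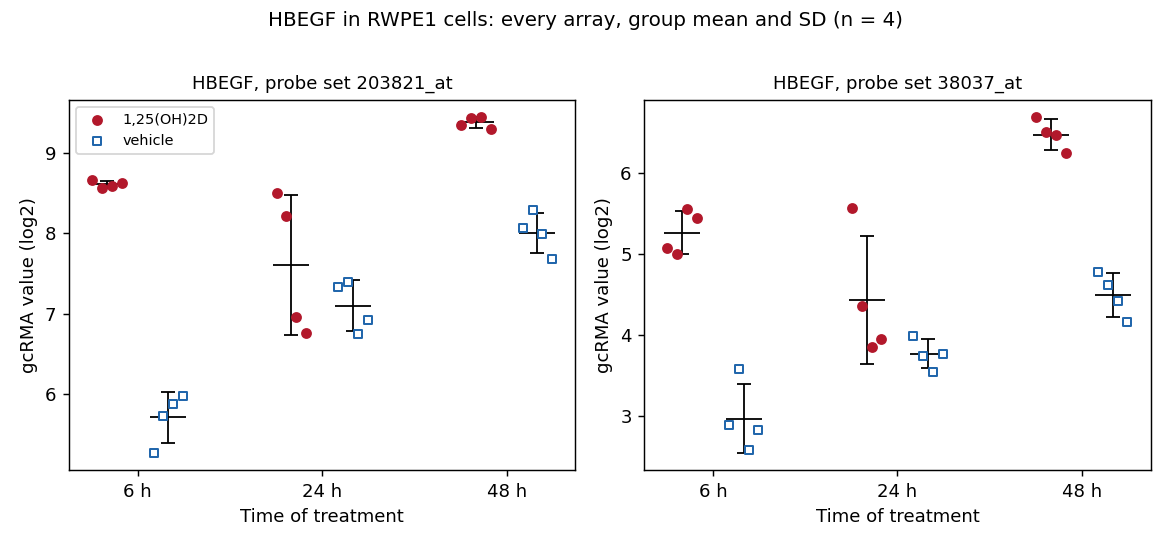
HBEGF by array (gcRMA value, log2, y axis) at 6, 24 and 48 h (x axis) for probe sets 203821_at and 38037_at. Filled circles are 1,25(OH)2D and open squares are vehicle, and the black bars are the mean and SD of 4 arrays. At 6 h the treated arrays of 203821_at sit between 8.56 and 8.66 and the vehicle arrays between 5.26 and 5.97, while at 24 h the groups overlap.

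Of the other 3 probe sets of HBEGF, 38037_at was tested and the others, 244857_at and 222076_at, had means of 2.73 and 2.13. Probe set 38037_at was at 5.08, 5.01, 5.56 and 5.45 with 1,25(OH)2D at 6 h, against 2.89, 3.58, 2.58 and 2.83 with vehicle. Its log2 fold changes were 2.30 (SE 0.23, adjusted p = 0.00117) at 6 h, 0.67 (SE 0.37, adjusted p = 0.601) at 24 h and 1.98 (SE 0.15, adjusted p = 0.000161) at 48 h. Both probe sets thus rose at 6 and 48 h. The vehicle arrays of 38037_at at 6 h lay around the lowest value kept for testing, 3.2.

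The levels of HBEGF also moved in vehicle, where 203821_at averaged 5.71 ± 0.32 at 6 h, 7.10 ± 0.32 at 24 h and 8 ± 0.25 at 48 h (SD, n = 4 each). With 1,25(OH)2D its level at 48 h was above that at 6 h by 0.77 (SE 0.28, adjusted p = 0.0649), and in vehicle by 2.30 (SE 0.28, adjusted p = 1.03e-05). Probe set 38037_at was called higher at 48 h in both. Its differences were 1.21 with 1,25(OH)2D (SE 0.28, adjusted p = 0.00414) and 1.53 in vehicle (SE 0.28, adjusted p = 0.000733). Ordered by the mean of 203821_at, the groups ran vehicle at 6 h, vehicle at 24 h, 1,25(OH)2D at 24 h, vehicle at 48 h, 1,25(OH)2D at 6 h and 1,25(OH)2D at 48 h. The arrays of 1,25(OH)2D at 24 h overlapped those of both its neighbours in this order, and no other neighbours overlapped.

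The effect on HBEGF was therefore not the same at all times. For 203821_at the effect at 24 h was lower than that at 6 h by a difference of -2.39 (SE 0.40, adjusted p = 0.00105), and for 38037_at the difference was -1.63 (adjusted p = 0.0301), a call that was lost when any of 11 of the 24 arrays was left out (adjusted p of 0.0546 to 0.0715). These were the 2 member probe sets called for this difference, against 2.12% of all probe sets (1.34% with a lower effect). For 48 h against 6 h the difference was -1.53 (SE 0.40, adjusted p = 0.0398) for 203821_at, the 1 member called against 2.8% of all (1.77% with a lower effect), and -0.32 (adjusted p = 1) for 38037_at. The call at 48 h against 6 h was lost when any of 15 of the 24 arrays was left out (adjusted p of 0.0505 to 0.0968).

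EREG and TGFA encode epiregulin and transforming growth factor alpha, which like HBEGF bind EGFR. Neither was called at any time. EREG was at 4.52, 4.51, 5.71 and 4.44 with 1,25(OH)2D at 6 h, against 4.7, 5.25, 5.59 and 5.36 with vehicle. The third treated array stood apart from the others, and the log2 fold change was -0.43 (adjusted p = 0.999). At 48 h EREG was at 4.42, 4.42, 4.48 and 4.49 with 1,25(OH)2D, against 4.13, 4.46, 3.97 and 3.86 with vehicle. Here the groups overlapped only through vehicle replicate 2, and the log2 fold change was 0.35 (SE 0.12, adjusted p = 0.126), or 0.46 (adjusted p = 0.0145) without that array. Of the 8 fits with 1 array left out this was the only 1 that passed (adjusted p up to 0.258).

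TGFA, read by 205016_at, averaged 8.50 ± 0.17, 7.72 ± 0.52 and 7.72 ± 0.20 with 1,25(OH)2D at 6, 24 and 48 h, and 8.38 ± 0.17, 8 ± 0.085 and 7.79 ± 0.18 with vehicle (SD, n = 4 each). The groups overlapped at each time, and the log2 fold changes of 0.12, -0.28 and -0.07 were not called (adjusted p = 1, 0.602 and 0.846). The dimmer probe sets of TGFA, 205015_s_at and 211258_s_at, gave 0.57 and 0.49 at 6 h (adjusted p = 0.54 and 0.724). With 1,25(OH)2D the level at 48 h less that at 6 h was -0.34 (adjusted p = 0.528) for EREG and -0.78 (SE 0.18, adjusted p = 0.00383) for TGFA. In vehicle both ligands were lower at 48 h than at 6 h, EREG by a difference of -1.12 (SE 0.30, adjusted p = 0.0142) and TGFA by one of -0.59 (SE 0.18, adjusted p = 0.0311). The TGFA probe sets 205015_s_at and 211258_s_at gave -0.44 and -0.05 in vehicle, neither called (adjusted p = 0.147 and 0.885). With 1,25(OH)2D they gave -1.17 and -0.54, both called (adjusted p = 0.000193 and 0.0284).

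EGFR, the receptor that gives the family its name, was read by 5 tested probe sets, which read the same gene and are not independent. None was called by limma at any time. At 6 h the log2 fold changes of the 5 lay between -0.01 and 0.11. At 24 h they lay between -0.79 and -0.51, and at 48 h between -0.55 and -0.20, so all 5 were lower with 1,25(OH)2D at both times.

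At 24 h the brightest, 201983_s_at, was at 12.89, 12.2, 12.61 and 11.61 with 1,25(OH)2D, against 12.59, 13.28, 13.08 and 13.14 with vehicle. The groups overlapped through vehicle replicate 1 and the treated replicates 1 and 3, and the log2 fold change was -0.69 (SE 0.29, adjusted p = 0.564). For 1 of the 5, 210984_x_at, the groups did not overlap (-0.60, SE 0.18, adjusted p = 0.399). The SAM test called 201984_s_at and 210984_x_at lower at 24 h, where it called 5.15% of all probe sets. Without the 4 arrays that stood apart, which left 2 treated and 3 vehicle arrays at 24 h, all 5 were called lower (-0.88 to -0.52, adjusted p of 0.0169 to 0.0307), in a setting that called 21.2% of all probe sets.

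At 48 h 201983_s_at was at 11.88, 12.86, 12.41 and 12.11 with 1,25(OH)2D, against 12.8, 12.82, 12.7 and 12.57 with vehicle. Treated replicate 2 alone lay above the vehicle arrays, and the other 3 lay below them. The log2 fold change was -0.41 (SE 0.19, adjusted p = 0.267). Without treated replicate 2 it was -0.59 (adjusted p = 0.0289), and 4 of the 5 probe sets were then called lower, so that 8 member probe sets in place of 4 were called at 48 h, against 13.6% of all. For 201983_s_at this was the only 1 of 8 fits with 1 array left out that passed (adjusted p up to 0.46). The 4 other EGFR probe sets had means of 1.43 to 2.38.

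ERBB2 and ERBB3 encode the receptor that pairs with the others and the neuregulin receptor with little kinase activity of its own. Neither was called for 1,25(OH)2D. ERBB2, read by 216836_s_at, averaged 8.74 ± 0.083, 9.10 ± 0.30 and 9.12 ± 0.18 with 1,25(OH)2D at 6, 24 and 48 h, and 8.71 ± 0.069, 9.22 ± 0.16 and 9.08 ± 0.077 with vehicle (SD, n = 4 each). The log2 fold changes of 0.03, -0.12 and 0.04 (SE 0.081, 0.16 and 0.093) were within 1 SE of 0, and that at 24 h was 0.05 with arrays centred on the median. Its level at 48 h was above that at 6 h by 0.38 with 1,25(OH)2D (adjusted p = 0.0295) and by 0.38 in vehicle (adjusted p = 0.0374).

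ERBB3, read by 226213_at, was at 7.98, 8.55, 8.5 and 8.22 with 1,25(OH)2D at 48 h, against 8.02, 8, 7.98 and 8.09 with vehicle. Treated replicate 1 lay among the vehicle arrays and the other 3 above them, and the log2 fold change was 0.29 (SE 0.12, adjusted p = 0.205). Without treated replicate 1 it was 0.40 (adjusted p = 0.0346), and that of 202454_s_at was then 0.61 (adjusted p = 0.0161). For 226213_at this was the only 1 of 8 fits with 1 array left out that passed (adjusted p up to 0.397). The earlier log2 fold changes were close to 0, at -0.07 for 6 h and -0.03 for 24 h, where it was 0.14 with arrays centred on the median.

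ERBB3 had the clearest change with time of the receptors. Its level was 7.08 ± 0.067, 7.97 ± 0.22 and 8.31 ± 0.27 with 1,25(OH)2D and 7.16 ± 0.18, 8 ± 0.11 and 8.02 ± 0.046 with vehicle at 6, 24 and 48 h (SD, n = 4 each). The level at 48 h was above that at 6 h by 1.23 (SE 0.12, adjusted p = 2.75e-07) with 1,25(OH)2D and by 0.87 (SE 0.12, adjusted p = 4.58e-05) in vehicle. No array of 48 h overlapped one of 6 h in either. The difference between these changes, 0.36, was not called (adjusted p = 0.489). Of the dimmer probe sets, 202454_s_at was higher at 48 h by 1.30 (adjusted p = 0.000151) with 1,25(OH)2D and by 0.59 (adjusted p = 0.0674) in vehicle. Probe set 1563253_s_at was called in neither, with 0.16 (adjusted p = 0.466) with 1,25(OH)2D and 0.08 (adjusted p = 0.773) in vehicle.

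**Figure D3:**
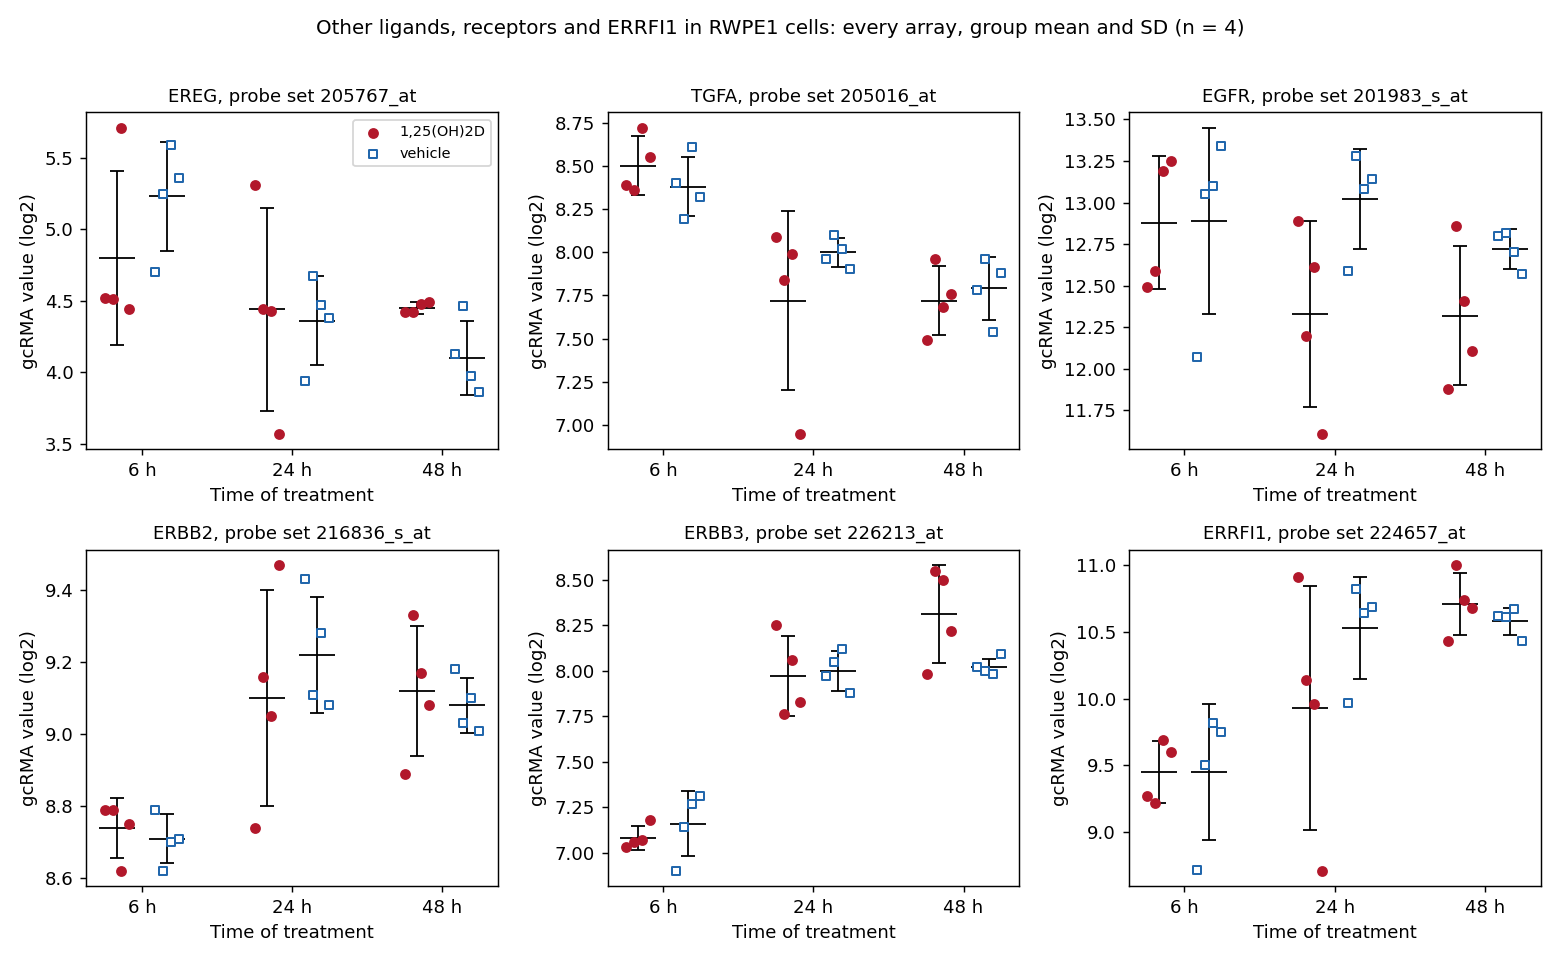
EREG, TGFA, EGFR, ERBB2, ERBB3 and ERRFI1 by array (gcRMA value, log2, y axis) at 6, 24 and 48 h (x axis), for the brightest tested probe set of each. Filled circles are 1,25(OH)2D and open squares are vehicle, and the black bars are the mean and SD of 4 arrays. No gene here was called for 1,25(OH)2D, and ERBB3 and ERRFI1 lie higher at 48 h than at 6 h under both.

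LRIG1 and LRIG3 encode membrane proteins with leucine-rich repeats and immunoglobulin domains. LRIG1 is known to promote the breakdown of EGFR family receptors, while LRIG3 is less well defined. They were lower with 1,25(OH)2D at each of the 3 times, though not every fall was called. LRIG1 is read by 1 tested probe set, 211596_s_at, and its other 3 had means of 1.91 to 2.1. LRIG3 has 1 probe set, 226908_at.

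LRIG3 was at 5.14, 4.75, 5.6 and 4.94 with 1,25(OH)2D at 6 h, against 6.32, 6.89, 6.77 and 6.89 with vehicle. Every treated array lay below every vehicle array. The log2 fold change was -1.61 (SE 0.21, adjusted p = 0.00453), and it stayed called in all alternatives run and with each array left out (-1.74 to -1.04 over the alternatives).

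At 24 h LRIG3 was at 7.26, 6.65, 6.79 and 5.66 with 1,25(OH)2D, against 7.19, 7.58, 7.52 and 7.52 with vehicle. Treated replicate 1 and vehicle replicate 1, both among the arrays that stood apart, were the ones that overlapped. The log2 fold change was -0.86 (SE 0.32, adjusted p = 0.511), and -0.82 (SE 0.073, adjusted p = 0.0127) without the 4 arrays that stood apart. That fit left 2 treated and 3 vehicle arrays and called 21.2% of all probe sets. Its small SE partly reflects how the 4 arrays were picked.

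At 48 h LRIG3 was at 6.61, 6.67, 6.86 and 6.67 with 1,25(OH)2D, against 7.3, 7.14, 7.32 and 6.94 with vehicle. The groups did not overlap, and the log2 fold change was -0.47 (SE 0.096, adjusted p = 0.0202). This call was lost when any of 5 arrays was left out, vehicle replicates 1, 2 and 3 and 1,25(OH)2D replicates 1 and 4 (adjusted p of 0.0517 to 0.0583), and also with all 24 arrays in one fit (adjusted p = 0.505).

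The level of LRIG3 at 48 h was above that at 6 h by 1.60 (SE 0.24, adjusted p = 5.71e-05) with 1,25(OH)2D, and by 0.46 (SE 0.24, adjusted p = 0.232) in vehicle. The difference between these, 1.14 (SE 0.34), was not called (adjusted p = 0.0864). Ordered by mean, the 3 groups with 1,25(OH)2D came lowest, at 5.11 ± 0.37 at 6 h, 6.59 ± 0.67 at 24 h and 6.70 ± 0.11 at 48 h, below vehicle at 6 h (6.72 ± 0.27), 48 h (7.18 ± 0.18) and 24 h (7.45 ± 0.18). In this order 1,25(OH)2D at 6 h did not overlap the next group, nor vehicle at 6 h that at 48 h, and the other neighbours overlapped.

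LRIG1 was at 7.21, 7.29, 7.55 and 7.32 with 1,25(OH)2D at 6 h, against 7.63, 7.97, 8.12 and 8.19 with vehicle. The groups did not overlap, and the log2 fold change of -0.63 (SE 0.14) missed the threshold (adjusted p = 0.0634). It passed in 7 of 11 alternatives, and without vehicle replicate 1 at 6 h it was -0.75 (adjusted p = 0.0123). That was the only 1 of 8 fits with 1 array left out that passed (adjusted p up to 0.198).

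At 24 h LRIG1 was at 8.19, 7.78, 8.2 and 7.72 with 1,25(OH)2D, against 8.79, 8.86, 8.74 and 8.95 with vehicle. All 4 treated arrays lay below the vehicle arrays, and the log2 fold change of -0.86 (SE 0.13) again missed the threshold (adjusted p = 0.0629), which it passed in 6 of 11 alternatives. With 1 array left out it passed in 0 of 8 fits (adjusted p of 0.0633 to 0.259). With the replicate number as a block its adjusted p was 0.792, in a setting that called only 1 of all tested probe sets at 24 h.

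At 48 h LRIG1 was at 7.46, 8.03, 7.62 and 7.64 with 1,25(OH)2D, against 8.49, 8.29, 8.27 and 8.36 with vehicle. The groups again did not overlap, and the log2 fold change was -0.67 (SE 0.12, adjusted p = 0.0122). It stayed called with each array left out, and was lost with the replicate number as a block (adjusted p = 0.0562). For LRIG1 the changes at 48 and 6 h differed by -0.03 (SE 0.19, adjusted p = 1), in contrast to the 1.14 of LRIG3, a contrast between the genes that was not tested.

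**Figure D4:**
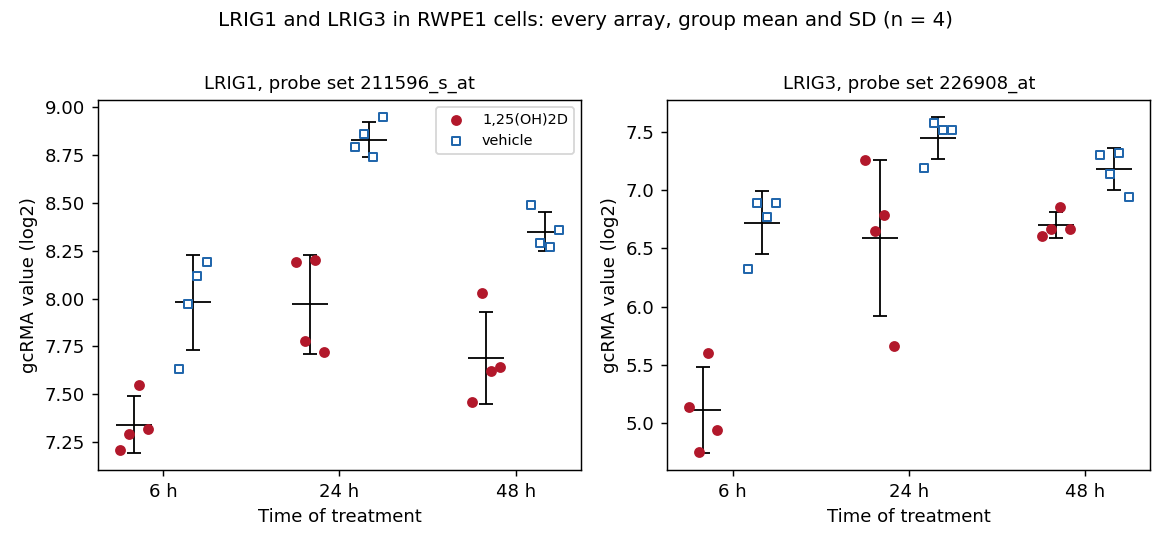
LRIG1 and LRIG3 by array (gcRMA value, log2, y axis) at 6, 24 and 48 h (x axis). Filled circles are 1,25(OH)2D and open squares are vehicle, and the black bars are the mean and SD of 4 arrays. The treated arrays of LRIG1 lie below the vehicle arrays at all 3 times, and those of LRIG3 at 6 and 48 h.

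The promoters of the 3 genes that were called are shown, from 250 bases before the transcription start to 50 after it, because their transcripts moved in opposite directions. They come from RefSeq on build GRCh38.p14, and capitals mark the motif matches that a search on both strands found. The promoter of HBEGF is chr5:140346554-140346853 on the minus strand, that of LRIG1 is chr3:66501072-66501371 on the minus strand, and that of LRIG3 is chr12:58920455-58920754 on the minus strand.
HBEGF: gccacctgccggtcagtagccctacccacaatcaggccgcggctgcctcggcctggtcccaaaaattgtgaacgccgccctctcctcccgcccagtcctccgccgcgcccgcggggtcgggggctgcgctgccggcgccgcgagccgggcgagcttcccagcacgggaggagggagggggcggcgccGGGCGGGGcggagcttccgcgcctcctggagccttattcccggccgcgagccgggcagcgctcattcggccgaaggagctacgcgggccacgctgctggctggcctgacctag
LRIG1: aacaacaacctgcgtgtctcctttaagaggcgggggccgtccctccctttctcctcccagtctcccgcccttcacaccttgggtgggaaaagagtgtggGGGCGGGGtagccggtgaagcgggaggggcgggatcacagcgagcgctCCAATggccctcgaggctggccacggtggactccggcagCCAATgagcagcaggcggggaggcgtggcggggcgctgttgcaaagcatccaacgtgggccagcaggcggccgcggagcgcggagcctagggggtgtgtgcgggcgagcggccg
LRIG3: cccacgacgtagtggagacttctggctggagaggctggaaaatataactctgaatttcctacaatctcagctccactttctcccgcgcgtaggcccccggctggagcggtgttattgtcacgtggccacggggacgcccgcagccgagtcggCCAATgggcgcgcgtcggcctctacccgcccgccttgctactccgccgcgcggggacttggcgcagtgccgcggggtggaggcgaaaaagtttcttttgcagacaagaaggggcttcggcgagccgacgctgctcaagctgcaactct

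The motifs searched were AP-1 (TGANTCA), the cyclic AMP response element (TGACGTCA), the TATA box (TATAAA), the CCAAT box (CCAAT), the GC box (GGGCGGGG) and the DR3 vitamin D response element. HBEGF held a GC box from -63 to -56, where the start base is 0. LRIG1 held a GC box from -151 to -144 and CCAAT boxes from -103 to -99 and from -64 to -60, and LRIG3 held a CCAAT box from -98 to -94. In 24885 promoters of this length, 22.4% held a GC box, 36.1% a CCAAT box, 7.85% an AP-1 motif and 0.0643% a DR3 element. None of these 3 windows held the letters of an AP-1 motif or of a DR3 element, and the letters of the predicted HBEGF site were not in its window. With so rare a DR3 pattern, its absence from 3 short windows says little. The second motif of the predicted HBEGF site does not itself meet the DR3 pattern searched.

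ERRFI1 encodes a cytosolic protein that binds the kinase domain of EGFR and inhibits it. It averaged 9.45 ± 0.23, 9.93 ± 0.91 and 10.71 ± 0.23 with 1,25(OH)2D at 6, 24 and 48 h, and 9.45 ± 0.51, 10.53 ± 0.38 and 10.58 ± 0.10 with vehicle (SD, n = 4 each). No change with 1,25(OH)2D was called. At 24 h the treated arrays ran from 8.71 to 10.91 and the vehicle arrays from 9.97 to 10.82. The log2 fold change was -0.60 (SE 0.44, adjusted p = 0.601), or -0.66 (SE 0.094, adjusted p = 0.018) without the 4 arrays that stood apart. That fit left 2 treated and 3 vehicle arrays and called 21.2% of all probe sets. Its small SE partly reflects how the 4 arrays were picked. The level at 48 h was above that at 6 h by 1.27 (SE 0.32, adjusted p = 0.00795) with 1,25(OH)2D and by 1.13 (SE 0.32, adjusted p = 0.0202) in vehicle.

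More member probe sets were called between times than between treatments at any 1 time, though the comparisons between times rest on a fit of all 24 arrays. Between 6 and 48 h 9 of the 19 were called with 1,25(OH)2D, 6 higher and 3 lower at 48 h, against 17.4% of all probe sets (8.67% higher and 8.69% lower). In vehicle 7 of the 19 were called, 5 higher and 2 lower at 48 h, against 14.7% of all (7.3% higher and 7.4% lower). The 5 that were higher in vehicle belong to HBEGF (both probe sets), ERBB2, ERBB3 and ERRFI1, and the 2 lower to EREG and TGFA. The calls of ERBB2 and TGFA in vehicle were lost when any of 7 and 5 of the 24 arrays was left out. That of EREG was lost without vehicle replicate 3 at 6 h, and that of ERRFI1 without vehicle replicate 1 at 6 h or replicate 3 at 48 h, which left 4 calls. With 1,25(OH)2D the call of ERBB2 was lost when any of 5 arrays was left out, and that of TGFA probe set 211258_s_at when any of 6 was (adjusted p of 0.0522 to 0.116).

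Across the 24 arrays the members varied in groups, given here as descriptions over arrays that share their groups and normalization. LRIG1 and LRIG3 varied together (Pearson r = 0.84, n = 24), as did ERBB3 and ERRFI1 (r = 0.81) and EREG and TGFA (r = 0.72), while EREG and ERBB2 ran opposite ways (r = -0.77). HBEGF was not close to any other member, with r between -0.38 (LRIG1) and 0.46 (ERRFI1). Of 11999 other genes, the ones most like HBEGF over the arrays were DDIT4 (r = 0.929), SEMA4B (r = 0.895) and TFAP2C (r = 0.866). The ones most like LRIG1 were SPRY2 (r = 0.952), FGFR2 (r = 0.928) and DAPK1 (r = 0.915), and those most like LRIG3 were DUSP6 (r = 0.945), PRICKLE1 (r = 0.942) and ETS2 (r = 0.937).

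Other genes of the pathway were read from lists. Of 7 other ligands 2 were tested, NRG1 and NRG2, and neither was called, while ERBB4, the fourth receptor, was too dim to be tested (mean 2.65). Of 6 genes that release ligands 5 were tested, and the protease ADAM10 alone was called, lower at 48 h by a log2 fold change of -0.26 (SE 0.067, adjusted p = 0.0474). Of 12 genes that attenuate receptors 11 were tested, and LRIG2 alone was called, higher at 48 h (0.26, adjusted p = 0.0252). LRIG2, the third of the LRIG family, thus moved the other way from LRIG1 and LRIG3 at that time. Of 23 adaptors and kinases 16 were tested, and HRAS alone was called, higher at 48 h (0.37, SE 0.083, adjusted p = 0.0294). Over all 12008 genes, 3.41% were called at 6 h (2.37% higher and 1.04% lower), 0.516% at 24 h (0.192% lower) and 12% at 48 h (5.14% higher and 6.87% lower).

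Among 16 genes that ERK signalling is known to induce or that feed back on it, 6 were called at 6 h, 1 higher and 5 lower with 1,25(OH)2D. FOSL1, an AP-1 subunit, rose (1.44, adjusted p = 0.00252). PHLDA1 (-1.39, adjusted p = 0.000483), the ERK phosphatase DUSP6 (-1.34, adjusted p = 0.0417) and IER3 (-1.21, adjusted p = 0.00476) fell, and the other 2 fell by less. At 24 h the inhibitor SPRY2 alone was called (-0.70, adjusted p = 0.045). At 48 h FOSL1 was higher (0.93, adjusted p = 0.00145) and PHLDA1 (-0.96, adjusted p = 0.000762) and IER3 (-0.69, adjusted p = 0.0047) were lower. At 6, 24 and 48 h the 16 had median log2 fold changes of -0.299, -0.319 and 0.08, against -0.029, 0.011 and -0.009 over all genes.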

How the data were processed

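RNA of 24 RWPE1 samples, 4 in each of 6 groups, was hybridised to Affymetrix U133 Plus 2.0 arrays. Per the labels and the study's methods, the authors ran gcRMA (version not given in the sources used here) over the full set of arrays, and what they deposited is log2 expression. Leaving aside 62 control probe sets, probe sets were ranked by the highest value that 3 of 4 arrays of any group reached, and the top ones were tested, as many as the authors kept by MAS5 present calls, which were not used here. Genes were named from the array's annotation (41091 probe sets with 1 symbol, 1801 with several, 11721 with none).

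Treated and vehicle arrays of each time (8 arrays) were compared with limma 3.58.1 in R 4.3.3, and differences between times with all 24 arrays and 6 group means, with Benjamini-Hochberg adjustment over all tested probe sets. The code was tested on simulated data. Figures were drawn with matplotlib 3.10.9 in Python 3.11.15. Arrays have no read depth, and the number of arrays limits the precision.

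The members and the lists were chosen with earlier results of these data known. Every member gene is named, with up to 3 rises and 3 falls per pathway list at each time, the cell type markers as a check, and the 3 genes most like each called member. Alternatives were all 24 arrays in one fit, no filter, a stricter filter (15000 probe sets), a second quantile normalization, centring on the median, a linear offset of 32, limma run with its trend and robust options, a block for replicate number, a re-implemented SAM, a mean of the probe sets of a gene, each array left out in turn, and leaving out the 4 arrays that stand apart.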

Additional observations from a re-analysis of the deposited data

Results flagged for a closer look

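The effect of 1,25(OH)2D on HBEGF differed between times by the test of the difference itself. For probe set 203821_at the effect at 48 h less that at 6 h was -1.53 and the effect at 24 h less that at 6 h was -2.39, and for 38037_at the effect at 24 h less that at 6 h was -1.63 (log2, limma on 24 arrays, 4 per group, adjusted p = 0.0398, 0.00105 and 0.0301). In every one of these the effect at 6 h was the larger one. The calls of -1.53 and -1.63 were lost when any of 15 and 11 of the 24 arrays was left out. For 38037_at the effect at 48 h less that at 6 h was -0.32 and was not called.

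In 2 of 54 groups of 4 arrays 1 array stood far from the others. EREG on 1,25(OH)2D replicate 3 at 6 h was at 5.71, with the other 3 arrays at 4.44 to 4.52. LRIG3 on vehicle replicate 1 at 24 h, one of the arrays that stood apart as a whole, was at 7.19, with the other 3 at 7.52 to 7.58. Chance alone sets 1 array apart by this measure in about 1 of 20 groups.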

How the results depend on the processing

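The rises of HBEGF at 6 and 48 h and the fall of LRIG3 at 6 h passed in every alternative in which they were fitted and with each array left out, and no call changed direction. Of 27 log2 fold changes of the members, 4 that were not called changed sign in an alternative other than leaving out 1 array, none of them beyond 0.14 in size, ERBB3, ERBB2 and EREG at 24 h and EGFR at 6 h. Centring on the median moved every log2 fold change at 24 h by 0.17. LRIG3 at 48 h lost its call with all 24 arrays in one fit and without a filter, and LRIG1 at 48 h with the replicate number as a block (adjusted p = 0.0562). At 24 h 1 member probe set was called in place of 0 with all 24 arrays in one fit, with a second quantile normalization and with the offset, 3 were called by SAM, and 8, all lower, without the 4 arrays that stood apart, where 21.2% of all probe sets were called. For the effect at 48 h against 6 h, 0 were called in place of 1 without a filter and with the offset, and 2 with a second quantile normalization, with centring and without the 4 arrays. For 24 h against 6 h, 1 was called in place of 2 without a filter, with the stricter filter and with the offset. Between 6 and 48 h with 1,25(OH)2D, 14 were called in place of 9 without the 4 arrays, against 31% of all. For these counts the cause was not tested. With each array left out in turn the counts ran from 3 to 4 at 6 h, 0 to 0 at 24 h, 3 to 8 at 48 h, 0 to 2 for 48 h against 6 h, 1 to 2 for 24 h against 6 h, 4 to 8 for the change with time in vehicle and 7 to 11 with 1,25(OH)2D.

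Same-numbered arrays did not deviate together at 24 and 48 h (correlations of -0.889 to 0.352 and -0.118 to -0.009). At 6 h the correlations were 0.756, -0.366, 0.589 and 0.67 for replicates 1 to 4. There 3 of 8 arrays correlated best with the array of their own number. The numbers were not treated as pairs, and whether they pair the 6 h samples is not known. LRIG1 at 6 h was called with the replicate block (adjusted p = 0.0373). With the replicate block the counts were 4, 0 and 3 at 6, 24 and 48 h, 1 and 2 for the differences between times, and 6 in vehicle and 8 with 1,25(OH)2D between 6 and 48 h. Arrays limit precision by their number and by background: 13 of the 32 probe sets were too dim to test.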
